A study of Mus musculus with 24 samples.

Results

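The response of Irf5-deficient dendritic cells to CpG-B was followed on 6 one-colour Agilent mouse arrays. The cells were grown from mouse bone marrow with human Flt3 ligand at 100 ng/ml, a growth factor that drives plasmacytoid and conventional dendritic cells, and were harvested at day 9. Irf5-KO cells that received CpG-B (CpG-B oligodeoxynucleotide 1668, 150 nM, 6 h) made 1 group of 3 arrays, and unstimulated Irf5-KO cells (Irf5-KO US) made the other group of 3. The study also held WT, Lyn-KO and DKO cells (DKO lacks both Lyn and Irf5), all on the C57BL/6 background and each with and without CpG-B, 24 arrays in all. Irf5 loss is therefore shared by both groups of the main comparison, and the WT CpG-B and WT US arrays served as the comparison for the size of the response. The series describes its triplicates as biological, and no further detail on the animals or on the Irf5 allele was found in the labels.

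A gene was examined when the scanner rated its probe well above background on every Irf5-KO CpG-B array or on every Irf5-KO US array. This held for 25280 of the 55681 probes on the array, which stand for 19305 features, 12216 of them genes with a symbol, out of 20210 features tested in the whole series. Of the 19305 features, 17306 were measured on all 6 arrays, 335 on the 3 CpG-B arrays and on no US array, 335 on the 3 US arrays and on no CpG-B array, and 1329 on all arrays of 1 group and some of the other.

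CpG-B is a DNA with unmethylated CG dinucleotides that Toll-like receptor 9 binds inside endosomes. The receptor signals through the adaptor Myd88 to the kinases of the Irak family and the ubiquitin ligase Traf6, which activate NF-kB, MAP kinases and interferon regulatory factors (IRFs). Irf5 is an IRF of this pathway and is known for its part in the induction of inflammatory cytokine genes, while Irf7 is known for the induction of type I interferons. Secreted interferon binds its receptor, and a transcription factor complex that contains Irf9 then switches on the interferon-stimulated genes through the interferon-stimulated response element in their promoters.

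Levels below are log2 signals after subtraction of the 75th percentile of each array, so that 0 is that percentile. Changes are differences of such levels, Irf5-KO CpG-B minus Irf5-KO US, given as log2 values ± the standard error of a limma fit to all 24 arrays with 3 arrays per group. Every change given for a gene passed a Benjamini-Hochberg adjusted p of 0.05 over the 20210 features (limma, 2-sided) unless its adjusted p is printed. Where no array of a group measured a gene, the change is given as a lower bound on the fold ("at least"). The bound holds for this background treatment and scaling only and is not a minimum over all settings. After normexp background correction with quantile normalisation some changes were smaller than their bound. Vgf then changed by 6.01, against a bound of 7.83 (log2), and Cd209a by -4.31, against -6.17. The p-values measure the spread between cultures that differ also in the slide, since every group had 1 array on each of the 3 slides.

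The arrays themselves differed little within a group. Replicates within the Irf5-KO groups had Pearson correlations over features, which do not vary independently, of 0.993 to 0.9959, whereas arrays of Irf5-KO CpG-B and Irf5-KO US correlated at 0.9104 to 0.9185. Features had a residual SD whose median was 0.135 (log2), no spot was saturated, and 3 arrays per group limit the precision. The targeted gene was read first. The single Irf5 probe gave 4.76, 4.93 and 5.23 in Irf5-KO CpG-B cells, against 4.59, 4.57 and 4.67 in Irf5-KO US cells. In WT cells it gave 4.42, 4.39 and 4.22 with CpG-B, against 4.84, 4.96 and 4.91 without it. The probe was well above background on every one of these 12 arrays, and the CpG-B arrays lay above the US arrays in Irf5-KO and below them in WT. No source used here places the probe inside or outside the deletion, so it checks nothing, and Irf5-KO means the arrays labelled so. Its change of 0.37 ± 0.09 in Irf5-KO cells was 0.24 without CpG-B replicate 3 and missed the threshold after quantile normalisation with or without normexp background correction.

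CpG-B changed the signal of most measured features. Of the 20210 features tested, 13506 (66.8%) were called, 6373 higher (31.5%) and 7133 lower (35.3%) with CpG-B. The change was at least 2-fold for 2638 called higher (13.1%) and for 2479 called lower (12.3%). The median change over all features was -0.02, with an interquartile range of -0.48 to 0.48. The groups did not overlap for 14812 features (73.3%). Counts within gene lists are to be read against these shares.

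**Figure D1:**
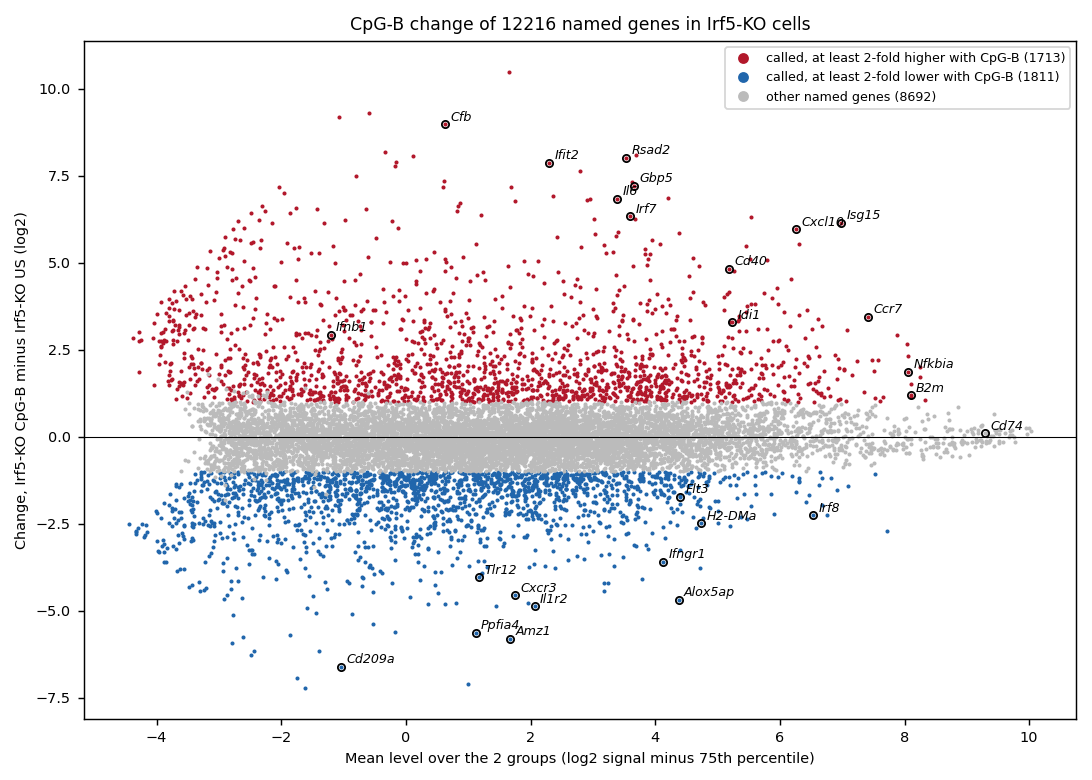
Change with CpG-B in Irf5-KO cells (vertical axis, log2, CpG-B minus US) against the mean level over the groups (horizontal axis, log2 signal minus the 75th percentile of the array) for the 12216 named genes, 1 point each. Genes called and at least 2-fold higher are red and genes called and at least 2-fold lower are blue, and labelled genes are described in the text. Rsad2 and Ifit2 lie near the top with changes of 8.02 and 7.87, and Amz1 and Ppfia4 near the bottom with -5.82 and -5.64.

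The interferon-stimulated genes rose together. All 58 of the 58 tested genes of this list, which are mostly antiviral effectors and sensors, were called higher, and all by at least 2-fold. Their median change was 4.79 (4.71 with the 3 genes that no US array measured set to their bound), and within slides 1, 2 and 3 it was 4.72, 4.80 and 4.90. The list was drawn up with earlier results of these arrays known, so its direction is a description.

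Rsad2, which encodes the antiviral enzyme viperin, had levels of 7.50, 7.49 and 7.62 in Irf5-KO CpG-B cells, against -0.65, -0.31 and -0.49 in Irf5-KO US cells. Its change was 8.02 ± 0.28 (adjusted p = 6.96e-15, limma), the second largest among genes measured on all 6 arrays, and the groups lay far apart. Isg15, a ubiquitin-like modifier, had 10.09, 10.12 and 9.97 with CpG-B, against 3.83, 4.01 and 3.90 without it. It differed from Rsad2 in its start, since it was already well above the 75th percentile in unstimulated cells, and it rose by 6.15 ± 0.20. Ifit2 and Ifit3, which are related interferon-stimulated genes, rose by 7.87 ± 0.24 and 7.32 ± 0.29. The guanylate-binding protein gene Gbp5 rose by 7.21 ± 0.24, the mitochondrial nucleotide kinase gene Cmpk2 by 6.92 ± 0.20, and Usp18, which removes Isg15 from proteins and restrains interferon signalling, by 6.85 ± 0.24. The cytosolic nucleic acid sensors Ifih1 (also called MDA5), Ddx58 (RIG-I) and Zbp1 rose by 5.23 ± 0.09, 5.10 ± 0.11 and 5.38 ± 0.31. The smallest changes of the list were those of Bst2 (1.76 ± 0.08), which tethers budding virions, and Ifitm3 (1.66 ± 0.08), which blocks virus entry. Both were high beforehand, Bst2 with 7.94, 8.02 and 8.14 in CpG-B cells, against 6.29, 6.17 and 6.36 in US cells.

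The promoters of these genes were set beside the changes because the response element is a short, readable sequence. The interferon response motif was written as GAAA, any 2 bases and GAAA, and the NF-kB motif as GGGA, any 2 bases and TTCC, each searched on both strands in the RefSeq windows of 250 bases before to 50 after each gene start (32851 windows of GRCm38.p6, 27025 genes). Of the 46 interferon-stimulated genes with a window, 30 (65.2%) held the interferon motif, against 3.99% of all genes. Among genes called at least 16-fold higher it was 39 of 156 (25%), among those called at least 2-fold higher 129 of 1354 (9.53%), among those called at least 2-fold lower 43 of 1465 (2.94%) and among those not called 80 of 2534 (3.16%). The NF-kB motif was found for 4 of 12 chemokine genes (33.3%), 3 of 13 genes of NF-kB subunits and inhibitors (23.1%), and 37 of 1354 genes called at least 2-fold higher (2.73%), against 1.63% of all genes. Its share was 29 of 1465 (1.98%) among genes called at least 2-fold lower and 48 of 2534 (1.89%) among those not called. A match is a description of the letters and not a bound site, and overlapping matches of a motif were counted once per gene.

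The 250 bases before the start are shown for 6 genes that rose and that hold a motif, read 5′ to 3′ on the strand of the gene, with matches to either motif in capitals (on the other strand the motifs read TTTC, any 2 bases, TTTC and GGAA, any 2 bases, TCCC). They stand on chr19, chr4, chr12 and chr5 of GRCm38.p6, as RefSeq gives them, at chr19:34583279-34583528 (Ifit3, plus strand), chr4:156200819-156201068 (Isg15, minus strand), chr12:26456453-26456702 (Rsad2, minus strand), chr5:92348890-92349139 (Cxcl10, minus strand), chr5:30012864-30013113 (Il6, plus strand) and chr12:55492648-55492897 (Nfkbia, minus strand).
Ifit3: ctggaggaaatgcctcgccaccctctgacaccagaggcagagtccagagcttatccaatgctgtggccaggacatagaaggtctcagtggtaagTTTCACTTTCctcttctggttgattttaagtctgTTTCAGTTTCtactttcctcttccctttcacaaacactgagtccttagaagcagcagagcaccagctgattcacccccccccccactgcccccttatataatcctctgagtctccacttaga
Isg15: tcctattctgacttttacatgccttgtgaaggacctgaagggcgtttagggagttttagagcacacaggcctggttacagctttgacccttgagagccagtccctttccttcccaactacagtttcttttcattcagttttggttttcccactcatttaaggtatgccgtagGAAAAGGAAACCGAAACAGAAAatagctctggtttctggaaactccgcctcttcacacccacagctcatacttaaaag
Rsad2: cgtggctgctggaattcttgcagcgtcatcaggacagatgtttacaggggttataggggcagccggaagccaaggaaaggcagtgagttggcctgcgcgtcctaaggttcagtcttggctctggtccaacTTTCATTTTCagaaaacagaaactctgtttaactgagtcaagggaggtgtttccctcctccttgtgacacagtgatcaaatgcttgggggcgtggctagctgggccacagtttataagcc
Cxcl10: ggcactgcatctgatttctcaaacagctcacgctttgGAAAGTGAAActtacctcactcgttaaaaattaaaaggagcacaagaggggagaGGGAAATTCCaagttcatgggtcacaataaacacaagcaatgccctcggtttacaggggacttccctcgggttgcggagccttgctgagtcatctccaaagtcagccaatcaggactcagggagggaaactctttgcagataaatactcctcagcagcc
Il6: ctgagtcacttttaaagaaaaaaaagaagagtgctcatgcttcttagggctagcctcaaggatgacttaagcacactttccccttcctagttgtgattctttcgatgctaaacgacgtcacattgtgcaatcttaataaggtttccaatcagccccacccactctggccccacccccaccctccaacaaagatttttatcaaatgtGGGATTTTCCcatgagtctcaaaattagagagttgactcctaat
Nfkbia: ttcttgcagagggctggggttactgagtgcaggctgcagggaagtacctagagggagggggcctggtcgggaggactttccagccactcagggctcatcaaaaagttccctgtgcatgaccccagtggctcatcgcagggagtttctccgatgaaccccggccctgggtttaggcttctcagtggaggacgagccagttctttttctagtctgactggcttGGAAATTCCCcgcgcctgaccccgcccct
Ifit3 holds 2 matches of the interferon motif, 156 and 122 bases before the start, Isg15 holds 3 overlapping matches that begin 78, 72 and 66 bases before it, and Rsad2 holds 1. Cxcl10 holds 1 match of each motif. In Il6 and Nfkbia the single capitals mark the NF-kB motif, 44 and 29 bases before the start.

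**Figure D2:**
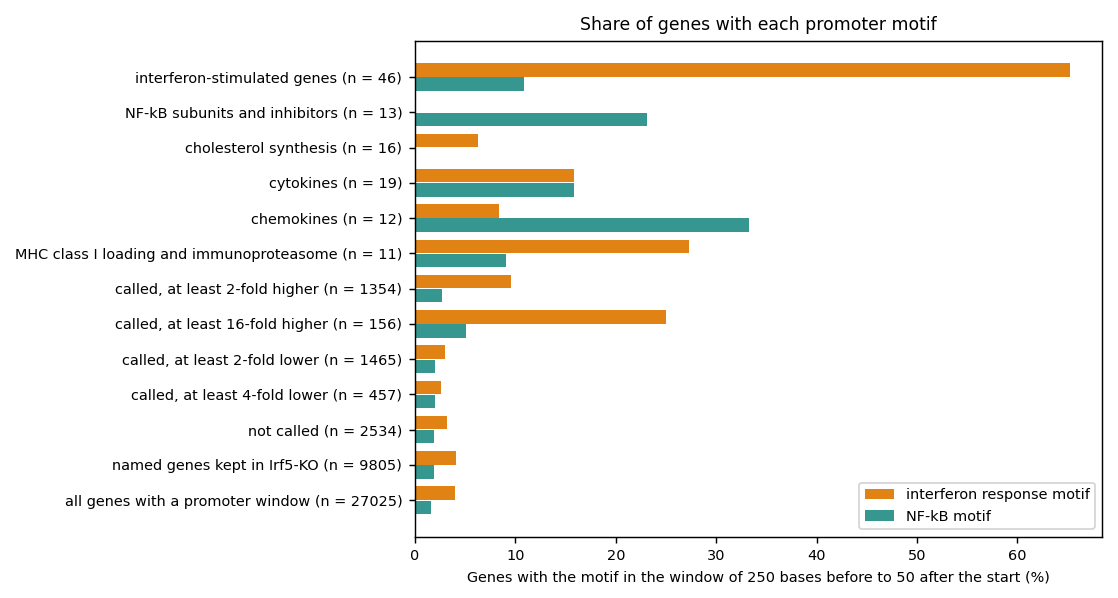
Share of genes (horizontal axis, percent) whose promoter window holds the interferon response motif (orange) or the NF-kB motif (green), for gene lists, classes of change in Irf5-KO cells and all genes, with the number of genes in brackets. The interferon-stimulated genes stand at 65.2% for the interferon motif, against 3.99% for all genes, and the chemokines at 33.3% for the NF-kB motif, against 1.63%.

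Among the IRF genes themselves, 7 of 9 were called higher and 1 lower. The 7 include the targeted gene Irf5, whose call was lost after quantile normalisation (0.13, adjusted p = 0.215, limma). Irf7 had levels of 6.78, 6.64 and 6.88 in Irf5-KO CpG-B cells, against 0.55, 0.46 and 0.31 in Irf5-KO US cells, a change of 6.33 ± 0.20. Irf1, which many inflammatory signals induce, rose by 2.26 ± 0.20, Irf9, the DNA-binding part of the interferon factor, by 1.69 ± 0.11, and Irf2 by 0.93 ± 0.13. Irf8, which dendritic cell and plasmacytoid cell development depends on, went the other way. It had 5.56, 5.20 and 5.46 in Irf5-KO CpG-B cells, against 7.72, 7.59 and 7.69 in Irf5-KO US cells, with no overlap and a change of -2.26 ± 0.09 (adjusted p = 8.11e-14, limma). Irf4, which several dendritic cell subsets express, rose by 0.62 ± 0.10. Irf3, the constitutive IRF of cytosolic sensing, was called at 0.19 ± 0.06 but stood at -0.03 (adjusted p = 0.59) after quantile normalisation, so its direction depends on the scaling.

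Type I and III interferon genes rose as well, 13 of 14 tested and none lower, with a median of 3.91 (3.73 at the bounds). Within slides the medians were 4.18, 3.74 and 3.83. These genes were near background in unstimulated cells. The median was 2.23 after normexp correction (here always with quantile normalisation), which shrinks changes of dim probes. Only 1 gene of the list had a probe measured on all 24 arrays, and that probe changed by 0.53. The alpha interferon genes are near-identical copies whose probes may share transcripts, so single members are uncertain. Ifnb1, the first interferon made in many responses, had 0.48, -0.04 and 0.31 in Irf5-KO CpG-B cells, against -2.95, -2.40 and -2.66 in Irf5-KO US cells, where 2 of 3 arrays measured it. The groups did not overlap, and the change was 2.92 ± 0.25, or 1.92 after normexp correction. Ifna1 had 1.64, 1.01 and 1.20 with CpG-B, against -2.29, -2.48 and -2.29 without it. In both genes the CpG-B arrays lay above the 75th percentile or close to it and the US arrays lay more than 2 below it. Ifna13 was measured on no US array and was at least 16.7-fold higher (adjusted p = 7.50e-10, limma). The probes for Ifnl3, a type III interferon, disagreed, with changes between 0.53 and 6.34 over 2 probes. Ifnk, an interferon best known from skin, was not called (-0.40 ± 0.19, adjusted p = 0.0764, limma), although it was called lower without CpG-B replicate 3 or US replicate 1 and after quantile normalisation.

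**Figure D3:**
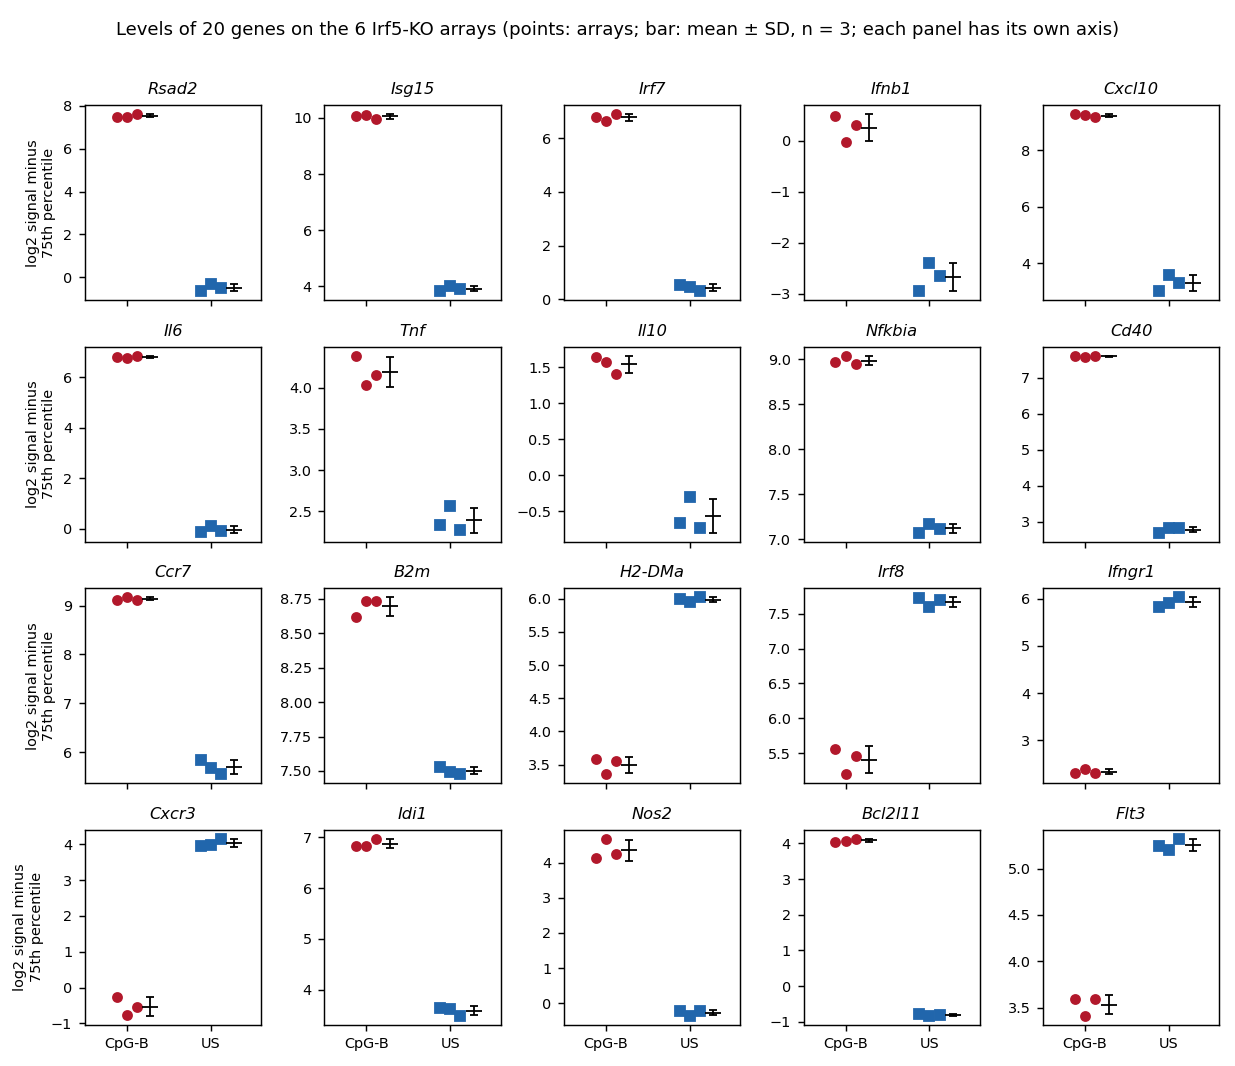
Levels of 20 genes on the 6 Irf5-KO arrays (vertical axes, log2 signal minus the 75th percentile of the array, each panel with its own range). Red circles are the 3 CpG-B arrays and blue squares the 3 US arrays, with the mean ± SD beside them (n = 3). In every panel the groups do not overlap: CpG-B arrays lie higher for 15 genes, from Rsad2 to Bcl2l11, and lower for H2-DMa, Irf8, Ifngr1, Cxcr3 and Flt3.

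Most inflammatory cytokine genes rose in Irf5-KO cells. Of 23 tested cytokine genes, 19 were called higher and 3 lower, with a median change of 2.79. The median was 2.31 with the 7 genes that 1 group did not measure at their bounds, 1.80 after normexp correction and 1.80 over probes measured on all 24 arrays. Il6, a cytokine of the acute phase and of B cell help, had 6.81, 6.77 and 6.85 in Irf5-KO CpG-B cells, against -0.11, 0.12 and -0.09 in Irf5-KO US cells. Its change of 6.84 ± 0.12 (adjusted p = 1.81e-18, limma) was the largest among the genes of the list measured in both groups, and the spread within each group was small beside it. Tnf, a central inflammatory cytokine, had 4.39, 4.03 and 4.15 with CpG-B, against 2.34, 2.57 and 2.28 without it, and rose by 1.80 ± 0.17. Il10, which dampens inflammation, had 1.64, 1.57 and 1.41 with CpG-B, against -0.66, -0.30 and -0.73 without it, and rose by 2.10 ± 0.19. Neither Tnf nor Il10 overlapped between the groups. The interleukin-1 receptor antagonist gene Il1rn was at least 55.7-fold higher, the death ligand gene Tnfsf10 at least 84.2-fold, the vasoconstrictor gene Edn1 at least 26.9-fold and Il15, which sustains NK and memory T cells, at least 42.9-fold higher, since no US array measured them. Il1b rose by 2.48 ± 0.14, and Il18, the related cytokine that inflammasomes also process, by 2.79 ± 0.10. Il27 and Ebi3, the 2 subunit genes of interleukin-27, rose by 1.57 ± 0.16 and 3.1 ± 0.06. Tgfb1, an immunosuppressive factor, fell to 1.43, 1.33 and 1.34 in CpG-B cells, against 2.79, 2.76 and 2.67 in US cells. Il12a, the p35 subunit gene of interleukin-12, was not called (-0.13 ± 0.23, adjusted p = 0.651, limma).

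Chemokine genes followed, with 14 of 17 tested called higher, 2 lower and a median change of 2.57. Cxcl10, which draws activated T cells through the receptor Cxcr3, had 9.28, 9.25 and 9.18 in Irf5-KO CpG-B cells, against 3.00, 3.57 and 3.27 in Irf5-KO US cells, and rose by 5.95 ± 0.31. Its relative Cxcl9 rose by 5.75 ± 0.40. The inflammatory chemokine genes Ccl3, Ccl4 and Ccl5 rose by 3.77 ± 0.12, 4.15 ± 0.16 and 2.66 ± 0.15. Ccl22 and Ccl17, which mature dendritic cells use to attract T cells through Ccr4, rose by 4.04 ± 0.24 and 3.05 ± 0.26. Ccl6 fell, with 2.40, 2.40 and 2.43 in CpG-B cells, against 3.93, 4.02 and 3.87 in US cells. Cxcl16 was not called (0.17 ± 0.09, adjusted p = 0.121, limma).

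The genes of NF-kB and its feedback rose broadly, 13 of 16 higher and 1 lower, with a median change of 1.53 (1.54, 1.55 and 1.55 within slides). Nfkbia, the inhibitor that NF-kB itself induces, had 8.97, 9.04 and 8.95 in Irf5-KO CpG-B cells, against 7.07, 7.17 and 7.11 in Irf5-KO US cells, a change of 1.87 ± 0.07. Tnfaip3, the deubiquitinase A20 that stops the pathway, rose by 3.03 ± 0.08, and Nfkbiz, a nuclear cofactor needed for Il6 induction, by 2.17 ± 0.14. The subunit genes Nfkb2 and Relb of the noncanonical arm rose by 1.98 ± 0.07 and 1.96 ± 0.08, and the atypical inhibitor Bcl3 by 2.33 ± 0.05. Nfkb1 moved less, at 0.49 ± 0.15. Rel, another subunit, was not called (1.18 ± 0.64, adjusted p = 0.112, limma). It was called with only the arrays of the comparison (adjusted p = 0.00482, limma). Its levels were dim, at -1.81, -2.10 and -1.88 with CpG-B, against -2.85, -3.66 and -2.83 without it. These levels did not overlap between the groups, and why the fit to all arrays missed the threshold was not tested.

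The immediate early factors split at this time of 6 h. Of 23 tested genes of the AP-1, EGR and related families, 12 were called higher and 9 lower. Batf, a partner of Irf4 and Irf8 on DNA, had 7.16, 7.23 and 7.19 in Irf5-KO CpG-B cells, against 3.15, 3.14 and 3.04 in Irf5-KO US cells, and rose by 4.08 ± 0.06. Jun rose by 2.30 ± 0.07, Junb by 1.25 ± 0.13, and the growth regulator Myc by 1.65 ± 0.11. Fos, the classical partner of Jun, had -0.20, 0.02 and -0.11 in CpG-B cells, against 2.44, 2.74 and 2.58 in US cells, and fell by 2.68 ± 0.15. Egr1, Egr2 and Maff fell with it, by 1.88 ± 0.17, 2.49 ± 0.25 and 2.04 ± 0.13. None of these 4 genes overlapped between the groups. Among phosphatases and inhibitors of kinase signalling, 14 of 19 were called higher and 5 lower. The MAP kinase phosphatase genes Dusp1 and Dusp2 rose by 3.39 ± 0.14 and 3.07 ± 0.06 and the stress gene Gadd45b by 3.98 ± 0.11, whereas Dusp6, which acts on Erk, fell by 2.00 ± 0.10 and the G protein regulator Rgs2 by 2.32 ± 0.07.

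The receptor pathway that senses CpG-B changed in both directions, with 10 of 25 tested genes called higher and 8 lower, shares close to those of all features. Its median of 0.07 turned to -0.06 after quantile normalisation. Tlr9 itself rose by 0.41 ± 0.06, with 2.98, 2.82 and 2.87 in Irf5-KO CpG-B cells, against 2.55, 2.45 and 2.45 in Irf5-KO US cells. Tlr7, the endosomal receptor for RNA, rose by 1.22 ± 0.08 and Myd88 by 2.34 ± 0.07. The adaptor gene Pik3ap1 rose by 2.42 ± 0.15 and Irak3, an inhibitory kinase homologue, by 1.06 ± 0.12. Lower were Irak1 (-1.06 ± 0.07), the adaptor gene Tirap (-1.14 ± 0.05) and the receptor genes Tlr13 (-1.38 ± 0.11) and Tlr3 (-1.68 ± 0.26, -0.88 after normexp correction).

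Several receptor chains for interferon fell, while inhibitors of their signalling rose. In the list of interferon receptors, JAK, STAT and SOCS genes, 13 of 19 were called higher and 4 lower, and the 4 lower were the receptor chains Ifngr1, Ifnar1, Ifnar2 and Ifnlr1. Ifngr1, the ligand-binding chain for interferon gamma, had 2.30, 2.39 and 2.30 in Irf5-KO CpG-B cells, against 5.82, 5.91 and 6.03 in Irf5-KO US cells. The groups lay far apart, and the change was -3.59 ± 0.07 (adjusted p = 4.10e-18, limma). Ifnar2 fell by 1.40 ± 0.09, and the 3 probes of Ifnar1 disagreed, with changes between -1.09 and 0.10. Ifnlr1, the type III interferon receptor chain, was measured on all US arrays and no CpG-B array and was at least 6.16-fold lower. Of the suppressors of cytokine signalling, Socs1 rose by 4.53 ± 0.22, Socs3 by 3.81 ± 0.18 and Cish by 3.87 ± 0.19. The other interferon gamma receptor chain, Ifngr2, rose by 1.10 ± 0.06. Stat3 rose by 2.78 ± 0.06, Stat4 by 1.59 ± 0.08 and Jak2 by 1.41 ± 0.09.

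Maturation genes rose, with 18 of 25 tested genes of costimulation and migration called higher and 6 lower. Cd40, through which T cells license dendritic cells, had 7.61, 7.58 and 7.61 in Irf5-KO CpG-B cells, against 2.69, 2.83 and 2.83 in Irf5-KO US cells, and rose by 4.81 ± 0.08. The ligands of the inhibitory receptor PD-1, Cd274 and Pdcd1lg2, rose by 5.29 ± 0.15 and 4.48 ± 0.13. The actin bundler gene Fscn1 rose by 4.09 ± 0.21, the lymph node homing receptor gene Ccr7 by 3.43 ± 0.12 and Cd86 by 1.48 ± 0.07. The 2 probes of Cd80 disagreed, with changes between -1.40 and 1.46, so no direction is given for it. Several chemokine receptors were lower. Cxcr3 had -0.25, -0.78 and -0.55 in CpG-B cells, against 3.97, 3.97 and 4.16 in US cells, and fell by 4.56 ± 0.15. Ccr2 and Ccr9 fell by 2.46 ± 0.10 and 2.53 ± 0.14.

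Antigen presentation divided by class. All 14 tested genes of MHC class I loading and the immunoproteasome were called higher, with a median change of 1.36. Nlrc5, the transactivator of class I genes, rose by 3.48 ± 0.17, the proteasome subunit gene Psmb10 by 2.17 ± 0.11, the peptide transporter genes Tap1 and Tap2 by 1.68 ± 0.15 and 1.31 ± 0.07, and B2m, the shared light chain, by 1.19 ± 0.09. Of 12 tested class II genes, 1 was called higher and 6 lower. The lower ones included the peptide exchange genes H2-DMa and H2-Oa. H2-DMa had 3.59, 3.35 and 3.55 in Irf5-KO CpG-B cells, against 5.99, 5.95 and 6.02 in Irf5-KO US cells, and fell by 2.49 ± 0.07. H2-Oa fell by 2.04 ± 0.07. The class II invariant chain gene Cd74 had 9.33, 9.37 and 9.32 with CpG-B, against 9.30, 9.22 and 9.22 without it, and was not called (0.09 ± 0.07, adjusted p = 0.29, limma). Neither was the class II transactivator Ciita (0.25 ± 0.18, adjusted p = 0.242).

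Enzymes that make or limit inflammatory small molecules rose, 11 of 13 with none lower, at a median change of 3.02. Nos2, the inducible nitric oxide synthase, had 4.12, 4.68 and 4.26 in Irf5-KO CpG-B cells, against -0.23, -0.36 and -0.22 in Irf5-KO US cells, and rose by 4.63 ± 0.17. Ptgs2, the inducible prostaglandin synthase, rose by 4.76 ± 0.24, and Acod1, which makes itaconate, by 3.02 ± 0.27. Ido1, which degrades tryptophan, was at least 15.2-fold higher.

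Most cholesterol synthesis genes rose. Of 23 tested genes, 19 were called higher and 2 lower, and the median change was 1.35 (1.27, 1.34 and 1.42 within slides). Idi1, an isomerase of the mevalonate pathway, had 6.82, 6.83 and 6.97 in Irf5-KO CpG-B cells, against 3.65, 3.62 and 3.49 in Irf5-KO US cells, and rose by 3.29 ± 0.07. Hmgcs1, a synthase early in that pathway, rose by 2.74 ± 0.09, and Sqle, the first oxygen-using enzyme of sterol synthesis, by 1.21 ± 0.07. The transcription factor gene Srebf2 of this pathway was not called (0.15 ± 0.10, adjusted p = 0.196, limma), except with the replicate number as a block (adjusted p = 0.0209).

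Other metabolic and stress lists held genes called in both directions. In glycolysis, lactate export and hypoxia, 8 of 22 genes were called higher and 10 lower. Pfkfb3, which makes the activator of phosphofructokinase, rose by 3.31 ± 0.09 and Hk2, a hexokinase, by 1.59 ± 0.08, while the isomerase gene Gpi1 fell by 1.39 ± 0.10. In oxidative phosphorylation 4 of 27 were called higher and 6 lower, with a median of -0.02, or -0.24 after quantile normalisation. In the tricarboxylic acid cycle 2 of 17 were called higher and 10 lower, led by Idh2, the mitochondrial isocitrate dehydrogenase, which fell by 1.79 ± 0.10. Of 22 lysosome and vacuolar ATPase genes, 8 were higher and 11 lower. Lamp2, a lysosomal membrane protein gene, rose by 2.10 ± 0.08 and Hexa, a lysosomal hydrolase gene, fell by 1.53 ± 0.08. Among 24 genes of the endoplasmic reticulum and integrated stress response, 16 were higher and 3 lower, with Trib3 (1.85 ± 0.10) and Chac1 (1.75 ± 0.16) at the top. Of 13 targets and regulators of Nrf2, 6 were higher and 3 lower, and Osgin1 fell by 3.17 ± 0.17. Of 18 genes of ribosome biogenesis and translation, 11 were higher and 2 lower, with a median of 0.31.

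Genes of survival and cell death rose on both sides of that balance, 20 of 24 higher and 3 lower. Bcl2l11, which encodes the death-promoting protein Bim, had 4.04, 4.08 and 4.13 in Irf5-KO CpG-B cells, against -0.78, -0.83 and -0.82 in Irf5-KO US cells, and rose by 4.89 ± 0.12. The protective gene Bcl2l1 rose by 3.31 ± 0.07. The inflammatory caspase gene Casp4 rose by 3.77 ± 0.12 and the death receptor gene Fas by 3.46 ± 0.12. Genes of DNA replication and mitosis fell, 24 of 33 lower and 6 higher, with a median of -0.41 that became -0.65 after quantile normalisation. The S phase enzyme gene Tk1 fell by 1.24 ± 0.08 and the factor E2f2 by 1.66 ± 0.08. Mcm7, a subunit of the replicative helicase, fell by 0.93 ± 0.10. The inhibitor of cyclin-dependent kinases Cdkn1a rose by 1.58 ± 0.10, and Cdkn2c, another such inhibitor, fell by 2.01 ± 0.12.

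**Figure D4:**
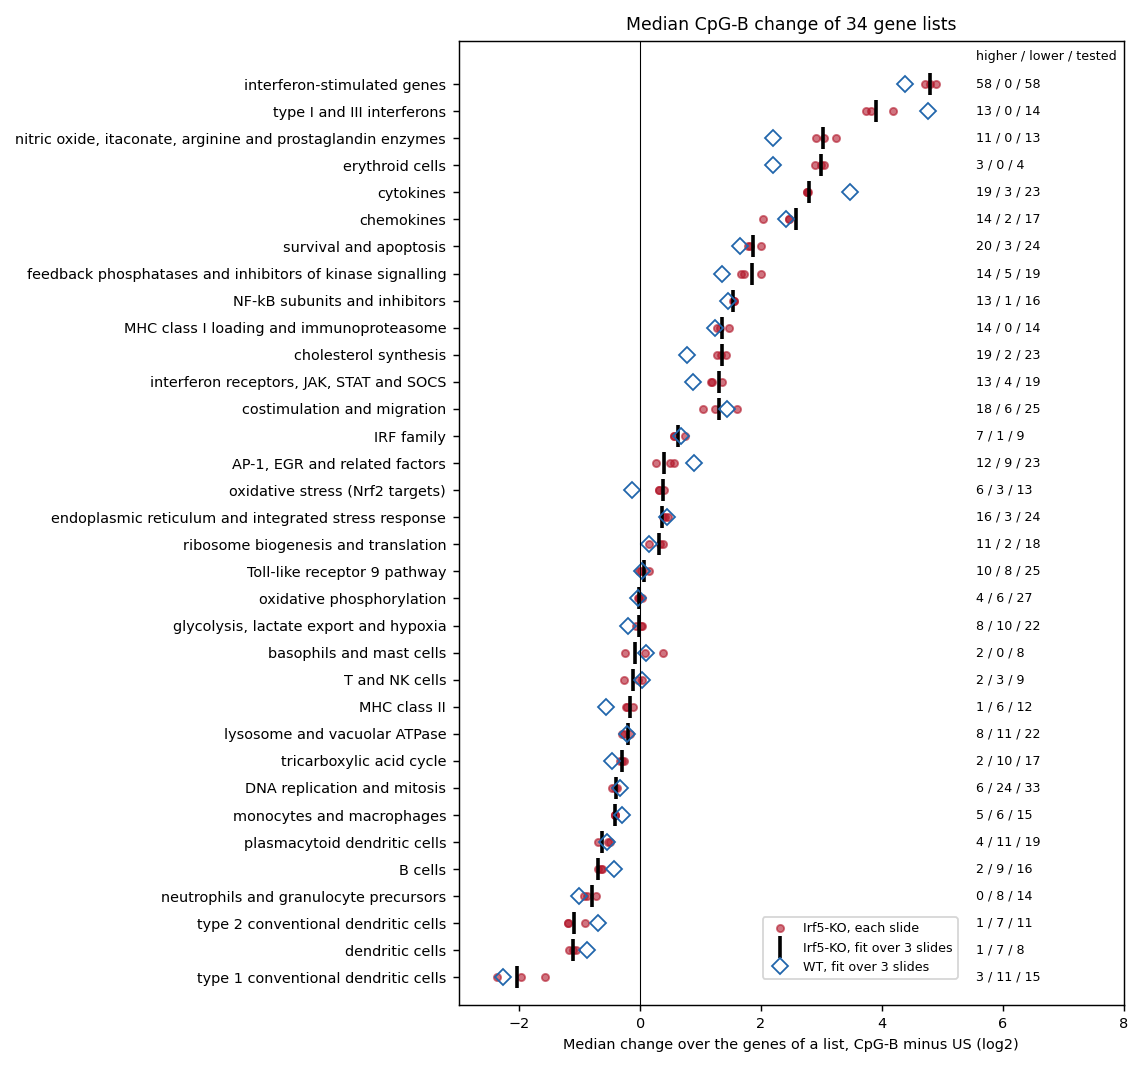
Median change with CpG-B over the tested genes of each of 34 lists (horizontal axis, log2, CpG-B minus US). Red points are the Irf5-KO medians within each of the 3 slides, black bars the Irf5-KO fit and open blue diamonds the WT fit, and the columns at the right give genes called higher, called lower and tested in Irf5-KO. Interferon-stimulated genes lie highest, at 4.79 in Irf5-KO and 4.38 in WT, and type 1 conventional dendritic cell markers lowest, at -2.04 and -2.26.

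Most dendritic cell markers fell with CpG-B. The summed level of the 4 defining dendritic cell markers was 248.6 to 261.1 times the 75th percentile on Irf5-KO CpG-B arrays, against 376 to 392.5 times on Irf5-KO US arrays, and all 4 were called lower. In such bulk samples fewer cells of a type and less RNA per cell cannot be told apart. Flt3, the receptor for the growth factor of the culture, had 3.60, 3.41 and 3.59 in CpG-B cells, against 5.24, 5.20 and 5.32 in US cells, and fell by 1.72 ± 0.07. Itgax, which encodes CD11c, fell by 1.84 ± 0.08. Of the wider list, 7 of 8 genes were lower, and the 1 higher was Batf3 (1.59 ± 0.15), a factor of type 1 conventional dendritic cells.

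Markers were also read by subset. For plasmacytoid dendritic cells the 6 defining markers summed to 468.2 to 535.7 with CpG-B, against 388.9 to 455.1 without it, 2 of them called higher and 2 lower. In the list of 19, 11 were lower, 8 of them by at least 2-fold, and 4 were higher, none of them by 2-fold. The sodium pump subunit gene Atp1b1 had 0.03, -0.58 and -0.72 with CpG-B, against 4.51, 4.21 and 4.34 without it. It changed by -4.78 ± 0.14, the chemokine receptor gene Ccr9 by -2.53 ± 0.14 and Cox6a2, a subunit gene of cytochrome c oxidase, by -1.21 ± 0.10. Their master factor gene Tcf4 rose by 0.67 ± 0.09 (0.39 after quantile normalisation with or without normexp correction) and Ly6d by 0.66 ± 0.10. Spib, another of their factors, was not called (-0.10 ± 0.08, adjusted p = 0.291, limma) but was called at -0.39 after quantile normalisation. The 2 probes of Siglech, a receptor typical of these cells, disagreed, with changes between -1.47 and 0.07. For type 1 conventional dendritic cells, 11 of 15 markers were lower and 3 higher, and the sum over 5 defining markers was 56.29 to 62.5 with CpG-B, against 96.6 to 109.9 without it. Xcr1, their chemokine receptor, had -2.09, -2.12 and -2.67 with CpG-B, against -0.52, -0.15 and -0.08 without it, and fell by 2.04 ± 0.23 (1.26 after normexp correction, likewise lower). Tlr11 was at least 20.4-fold lower. Clec9a, their receptor for dead cells, was not called (0.00 ± 0.09, adjusted p = 0.989), although normexp correction gave -0.22 (adjusted p = 0.02). Cd8a, expressed by these and other cells, had 4.04, 3.95 and 4.18 in CpG-B cells, against -2.42, -2.37 and -2.48 in US cells, and rose by 6.48 ± 0.10 on both probes that measured it. For type 2 conventional dendritic cells, 7 of 11 were lower and 1 higher. Cd209a was measured on no CpG-B array and was at least 72.1-fold lower, and Sirpa fell by 1.74 ± 0.08.

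Markers of other cells were read for what else the cultures held. The summed level of 6 B cell markers was 28.96 to 33.8 with CpG-B, against 73.56 to 87.13 without it. Of these 6, 3 were called lower and none higher, and of 16 listed genes 9 were lower and 2 higher. Cd79b, a chain of the B cell receptor, fell by 1.80 ± 0.18. The 6 measured neutrophil markers summed to 53.83 to 75.14 with CpG-B, against 88.52 to 112.9 without it. Only 2 of these 6 were called lower and none higher, and of 14 listed genes 8 were lower and none higher. Monocyte and macrophage markers summed to 23.91 to 27.76 with CpG-B, against 21.96 to 27.76 without it. Of 15 listed, 5 were higher, with Fcgr1 (3.61 ± 0.22), an interferon-inducible receptor, at the top, and 6 lower, with Lyz2 at -2.18 ± 0.20. Cd3d and Ncr1 of T and NK cells, Fcer1a and Ms4a2 of basophils and mast cells, and Hba-a1, Klf1 and Alas2 of erythroid cells were not well above background on all 3 Irf5-KO US arrays. In the T and NK list 2 of 9 genes were higher and 3 lower. Of the basophil and mast cell list 2 of 8 were called, both higher, led by Hdc (5.49 ± 0.13), the histamine-forming enzyme that myeloid cells also induce. In the erythroid list 3 of 4 were higher, namely the carbonic anhydrase genes Car1 (3.26 ± 0.10) and Car2 (3.14 ± 0.14) and the globin gene Hbb-bt (2.86 ± 0.24). The part that any shift in cell types has in the changes above was not tested.

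The largest single changes lay partly outside the lists. Saa3, an acute phase protein gene, had 7.53, 8.02 and 7.64 in Irf5-KO CpG-B cells, against -0.21, 0.33 and -1.18 in Irf5-KO US cells, and rose by 8.08 ± 0.52, the largest change among called genes measured on all 6 arrays. The US arrays spread over more than 1 on the log2 scale, yet no array overlapped. Pdzk1ip1 and the scavenger receptor gene Scarf2 rose by 7.64 ± 0.25 and 6.83 ± 0.20. Of genes that no US array measured, Cfb, complement factor B, had the highest bound, at least 441-fold, with mean levels of 5.12 with CpG-B and -3.85 without it. Vgf, a secreted neuropeptide precursor, was at least 228-fold higher and the transporter gene Flvcr2 at least 155-fold. Sct, the gene of the hormone secretin, was singled out after its values were seen: it had 6.61, 6.84 and 7.26 with CpG-B, against -3.97, -3.50 and -3.29 without it, and only 1 US array measured it.

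At the other end, Amz1, a metalloprotease gene, had -1.06, -1.16 and -1.50 in Irf5-KO CpG-B cells, against 4.49, 4.63 and 4.61 in Irf5-KO US cells, and fell by 5.82 ± 0.13. Ppfia4 fell by 5.64 ± 0.13 on its brightest probe, while changes over its 2 probes ran from -5.64 to -0.55. Il1r2, the decoy receptor for interleukin-1, fell by 4.88 ± 0.10, and Arrb1, which desensitises G protein-coupled receptors, by 4.87 ± 0.12. Alox5ap, the activating protein of leukotriene synthesis, had 1.78, 2.25 and 2.08 with CpG-B, against 6.72, 6.67 and 6.77 without it, and fell by 4.68 ± 0.08. Hfe, an MHC-like regulator of iron, fell by 4.79 ± 0.14. Of genes that no CpG-B array measured, Gpr34, a lysophospholipid receptor gene, was at least 49.6-fold lower, Klrb1b, an NK receptor gene, at least 47.4-fold and the myeloid factor gene Cebpa at least 26.3-fold lower.

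Much of this response was shared with WT cells, which were fitted in the same model. In WT, 13831 features were called, 6415 higher (31.7%) and 7416 lower (36.7%). In both genotypes 5388 features were called higher and 6340 lower, 81 were called higher in Irf5-KO and lower in WT, and 85 lower in Irf5-KO and higher in WT. The difference of the responses, Irf5-KO minus WT, was tested as an interaction and was called for 2475 features (12.2%), 1395 with a positive difference (6.9%) and 1080 with a negative one (5.34%). The genes named below are those with the largest differences or members of the lists, and differences are log2 values with limma adjusted p-values over all features.

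**Figure D5:**
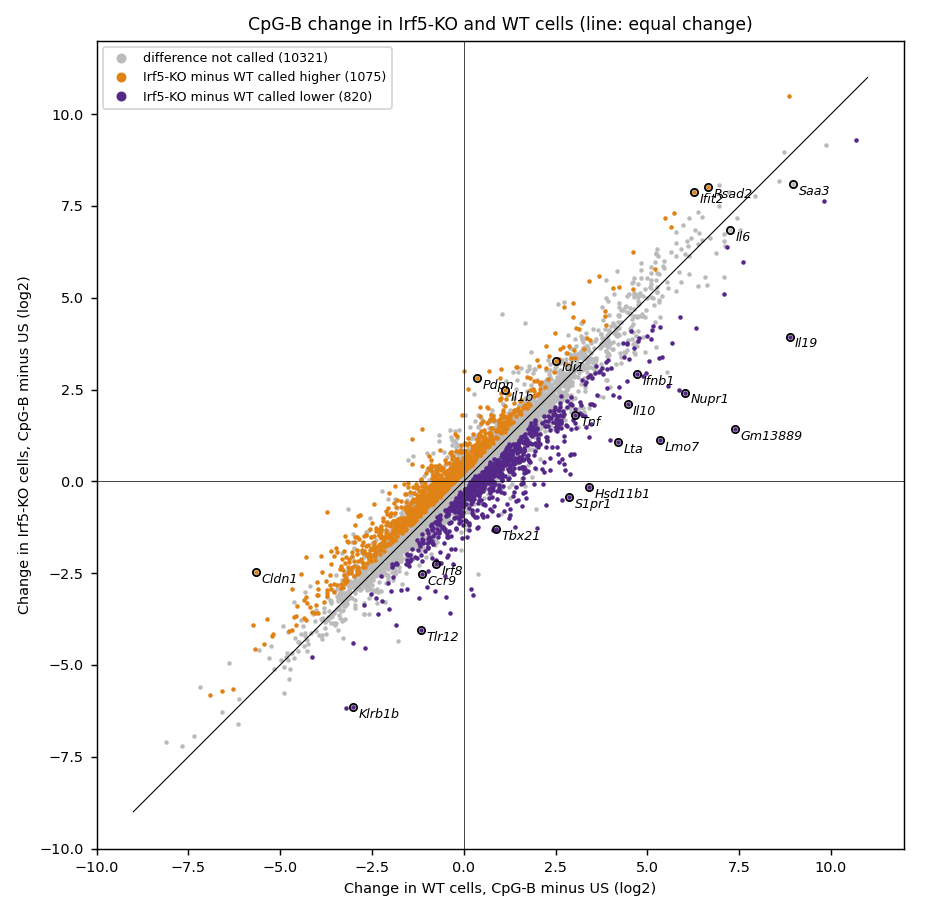
Change with CpG-B in Irf5-KO cells (vertical axis, log2, CpG-B minus US) against that in WT cells (horizontal axis) for the 12216 named genes, with the line of equal change. Orange points had a difference, Irf5-KO minus WT, called higher and purple points called lower, and grey points were not called. Il10 and Lta lie below the line, with differences of -2.36 and -3.13, and Idi1 and Il1b above it, with 0.76 and 1.34. Of the labelled genes, Il19, Lmo7, Cldn1 and Klrb1b had a group in which no array measured them.

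Several cytokine genes rose less in Irf5-KO cells. Il10 changed by 2.10 ± 0.19 in Irf5-KO cells and by 4.46 ± 0.19 in WT cells, a difference of -2.36 ± 0.27 (adjusted p = 7.71e-06). The WT levels were 2.62, 2.54 and 2.77 with CpG-B, against -2.27, -1.76 and -1.43 without it. The Irf5-KO CpG-B arrays, at 1.64, 1.57 and 1.41, lay below all WT CpG-B arrays. The Irf5-KO US arrays lay above all WT US arrays, so the Il10 difference came from the unstimulated as well as the stimulated cells. Il27 differed by -1.91 ± 0.22 and its partner Ebi3 by -0.92 ± 0.08. Lta, lymphotoxin alpha, changed by 1.08 ± 0.18 in Irf5-KO cells (0.49 after normexp correction) and by 4.21 ± 0.18 in WT cells, a difference of -3.13 ± 0.26. For Il19, a relative of Il10, the fitted difference was -4.93 ± 0.48, but no US array of either genotype measured the gene, so this size is not a measured one. Tnf changed by 1.80 ± 0.17 in Irf5-KO cells and by 3.02 ± 0.17 in WT cells (-1.23 ± 0.23, adjusted p = 0.00137). For Il6 the difference was not called (-0.42 ± 0.17, adjusted p = 0.135). Il1b went the other way and rose more in Irf5-KO cells (1.34 ± 0.20). Over the 23 cytokine genes, 7 differences were called lower and 2 higher (4 higher after normexp correction and 1 without Irf5-KO US replicate 1 or WT US replicate 2), against 5.34% and 6.9% of all features.

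Of 14 interferon genes, 6 differences were called lower and none higher. The 6 became 2 to 7 when single arrays of the 4 groups were left out, with 2 without Irf5-KO CpG-B replicate 2, WT CpG-B replicate 1 or WT CpG-B replicate 2. The count was 2 with only the arrays of the comparison and 3 of 15 with no filter on dim probes. It was 8 after quantile normalisation and 11 after normexp correction. Ifnb1 changed by 2.92 ± 0.25 in Irf5-KO cells and by 4.73 ± 0.25 in WT cells (-1.80 ± 0.35, adjusted p = 0.00175), and Ifna1 differed by -1.0 ± 0.22. Of the 58 interferon-stimulated genes, 8 differences were called higher and none lower, and the median difference was 0.35. The count was 4 without WT US replicate 1 or Irf5-KO CpG-B replicate 3 and 17 without WT US replicate 3. With CpG-B the median level of these genes was 6.47, 6.48 and 6.60 on Irf5-KO arrays and 6.56, 6.41 and 6.32 on WT arrays. On US arrays it was 1.31, 1.47 and 1.28 in Irf5-KO cells, below the 2.27, 1.77 and 1.55 in WT cells, and WT US replicate 1 was the highest WT US array for 50 of the 58 genes. Ifit2 rose by 7.87 ± 0.24 in Irf5-KO cells and by 6.28 ± 0.24 in WT cells (1.59 ± 0.35, adjusted p = 0.00402, and 1.17 without WT US replicate 1). Its mean level was 6.24 in Irf5-KO and 5.89 in WT cells with CpG-B, and -1.64 in Irf5-KO and -0.40 in WT cells without it. Cmpk2 differed by 1.26 ± 0.28 and Ifih1 by 0.61 ± 0.13, while for Isg15 the difference was not called (0.36 ± 0.29, adjusted p = 0.536).

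Transcription factor genes differed as well. Irf8 fell by 2.26 ± 0.09 in Irf5-KO cells and changed by -0.75 ± 0.09 in WT cells (-1.51 ± 0.13, adjusted p = 3.31e-07). Its WT levels were 7.14, 6.92 and 6.70 with CpG-B, against 7.63, 7.71 and 7.67 without it, so the Irf5-KO CpG-B arrays were the lowest of the 12. Irf4 rose less in Irf5-KO cells (-1.01 ± 0.14). Tbx21, which encodes T-bet, fell to -1.75, -1.54 and -1.41 in Irf5-KO CpG-B cells, against -0.31, -0.24 and -0.22 in Irf5-KO US cells. In WT cells it had 0.67, 0.51 and 0.80 with CpG-B, against -0.35, -0.12 and -0.22 without it, so its direction was opposite, and the difference was -2.20 ± 0.22. Its change in Irf5-KO cells was -0.82 after normexp correction, against -1.31 ± 0.15 otherwise. Batf3 rose less in Irf5-KO cells (-1.06 ± 0.21). Cell type markers that differed included Ccr9 (-1.40 ± 0.20) and Klk1 (-2.24 ± 0.28) of plasmacytoid dendritic cells, where 7 of 19 differences were called lower and none higher. Tlr12, a receptor gene of type 1 conventional and plasmacytoid dendritic cells, fell by 4.04 ± 0.15 in Irf5-KO cells and by 1.16 ± 0.15 in WT cells (-2.88 ± 0.21). Naaa, a lipid amidase gene of type 1 conventional cells, fell less in Irf5-KO cells (1.52 ± 0.17). Of the 15 tested genes in the type 1 conventional list, 6 differences were called higher and 2 lower, with a median of 0.58. Over all features the shares were 6.9% and 5.34%.

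Of the 23 cholesterol genes, 15 had a difference called higher and none one called lower. The median change was 1.35 in Irf5-KO cells and 0.77 in WT cells. Idi1 rose by 3.29 ± 0.07 in Irf5-KO cells and by 2.53 ± 0.07 in WT cells (0.76 ± 0.10, adjusted p = 2.14e-05). Hmgcs1 differed by 0.83 ± 0.12 and Sqle by 0.80 ± 0.10. In other lists, 6 of 22 differences of glycolysis and hypoxia genes were called higher (3 without Irf5-KO CpG-B replicate 2 or WT US replicate 3), among them the lactate exporter Slc16a3 (1.17 ± 0.15), and 5 of 12 of MHC class II genes, among them H2-DMa (0.58 ± 0.10) and H2-Oa (0.57 ± 0.10), which fell less in Irf5-KO cells. The cell cycle inhibitor gene Cdkn1a rose more in Irf5-KO cells (1.10 ± 0.15), as did Stat4 (0.95 ± 0.11) and Ccl22 (1.55 ± 0.34).

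The largest differences fell on genes of varied roles. Gm13889 changed by 1.42 ± 0.28 in Irf5-KO cells (0.92 after normexp correction) and by 7.38 ± 0.28 in WT cells, a difference of -5.97 ± 0.40 (adjusted p = 1.45e-08). The stress-inducible nuclear protein gene Nupr1 differed by -3.61 ± 0.19 and the cortisone-activating enzyme gene Hsd11b1 by -3.58 ± 0.24. Hsd11b1 had -2.27, -2.45 and -2.54 in Irf5-KO CpG-B cells, against -2.10, -2.20 and -2.49 in Irf5-KO US cells, and was not called there (adjusted p = 0.433), whereas in WT cells it had 2.5, 2.27 and 2.23 with CpG-B, against -1.14, -1.13 and -1.0 without it. S1pr1, the receptor for lymph exit signals, was likewise not called in Irf5-KO cells (adjusted p = 0.146; adjusted p = 0.0386 without Irf5-KO CpG-B replicate 2) and rose by 2.88 ± 0.25 in WT cells, a difference of -3.30 ± 0.35. For some genes with a large fitted difference a group had no array that measured the gene, so the size is not a measured one. For Ifnlr1 (-3.37 ± 0.29) and Klrb1b (-3.14 ± 0.23) that group was Irf5-KO CpG-B, for the cytoskeletal gene Lmo7 (-4.22 ± 0.31) WT US, and for Plekhs1 (-3.37 ± 0.54) US in both genotypes. After normexp correction the values were -1.39 for Ifnlr1, -1.20 for Klrb1b and -2.74 for Lmo7. The tight junction gene Cldn1 (3.18 ± 0.47, or 0.96 after normexp correction) was measured on no WT CpG-B array. In Irf5-KO cells it fell by 2.48 ± 0.33, or by 1.54 after normexp correction. Pdpn, the gene of podoplanin, changed by 2.81 ± 0.31 in Irf5-KO cells (1.79 after normexp correction) and by 0.36 ± 0.31 in WT cells (2.45 ± 0.44), and Dnah2, a dynein heavy chain gene, differed by 2.56 ± 0.44. Abca13 (3.01 ± 0.75), Tlx2 (2.41 ± 0.54) and Pgm5 (2.32 ± 0.44) were measured on no Irf5-KO US array. Abca13 and Tlx2 were measured on no WT CpG-B array either, and Abca13 also on no WT US array. After normexp correction Abca13, Tlx2 and Pgm5 differed by 0.66, 0.73 and 0.95. Lyn, the kinase studied beside Irf5, rose by 0.38 ± 0.09 in Irf5-KO cells and by 1.25 ± 0.09 in WT cells (-0.87 ± 0.13), and its rise in Irf5-KO cells missed the threshold after normexp correction (0.27, adjusted p = 0.057, limma).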

How the data were processed

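Per the labels' protocols, Cy3-labelled total RNA of 24 cultures was hybridised to Agilent mouse arrays. Per the file headers, the deposited scanner output came from Feature Extraction 10.7.3.1, and the processed signal used here is an intensity from which the authors' software removed background and spatial trends without scaling one array to another. The authors' series table, also deposited, is in log2. Setting it against the scanner output showed a shift by each array's 75th percentile and centring of every probe on its median. For 95% of the 13390 probes with a signal of 200 or more, array differences there were within 0.00475 of those computed here.

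Non-uniform and outlier spots were dropped, the log2 processed signal was averaged over the spots of a probe, and each array's 75th percentile was subtracted. A probe had to be well above background on all 3 arrays of some group, and the brightest probe stood for its gene. Accessions matched to RefSeq (GRCm38.p6) named 26762 probes, and 28919 stayed unnamed. The headers annotate the array to another build, so coordinates are given only for RefSeq promoter windows. limma 3.58.1 (R 4.3.3) was fitted to all 24 arrays with 1 mean per group. The CpG-B change in Irf5-KO cells, and its difference from that in WT cells, were tested with Benjamini-Hochberg adjustment over 20210 features. For a bound, an array of the unmeasured group counted at its own value or at its lowest signal well above background, whichever was higher.

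The replicate number is that of the slide. Same-numbered CpG-B and US arrays deviated together from their group means (correlations of 0.192, 0.147 and 0.132 in Irf5-KO and 0.152, 0.141 and 0.213 in WT), so the numbers pair the arrays. The slide and anything else that arrays of the same number share, such as a culture batch, cannot be told apart here. The fit was also run on simulated data, and the outcome is not reported here. Genes were named by a rule (the 12 largest called changes in each direction among genes measured on all 6 arrays without overlap, the 8 largest bounds and the 8 largest differences from WT in each direction, list members, Irf5 and Lyn), and those described were picked from within it, with a preference for calls that held when single arrays were left out. The genes, lists and rule were chosen with earlier results of these data known. Alternatives were quantile normalisation, normexp (offset 50) with quantile normalisation, median scaling over the probes that all arrays detected, other filters on dim probes, every probe on its own, the replicate block, another variance prior, only the arrays of the comparison, the authors' series values and leaving out each array. Lyn-KO and DKO arrays entered the fit but were not described. Some list members are counted but not reported singly here.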

Additional observations from a re-analysis of the deposited data

Results flagged for a closer look

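These genes changed with CpG-B by a different amount in Irf5-KO than in WT cells, in a test of the difference of the 2 responses (limma, adjusted p below 0.05 over all features). Values are Irf5-KO minus WT on the log2 scale, and the causes were not tested. Lower and higher refer to the signed change and not to its strength. Irf8, Tlr12, Ccr9 and Klrb1b fell in both genotypes and fell more in Irf5-KO cells, yet are listed as lower. Cldn1, Naaa, H2-DMa and H2-Oa fell less in Irf5-KO cells and are listed as higher. For Il19, Ifnlr1, Klrb1b, Lmo7, Plekhs1, Cldn1, Abca13, Tlx2 and Pgm5 at least 1 of the 4 groups had no array that measured the gene, so the size of the value is not a measured one. Groups of 3 arrays are too small for a test of single outlying arrays.

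Among cytokine and interferon genes the response was lower in Irf5-KO for Il19 (-4.93), Lta (-3.13), Il10 (-2.36), Il27 (-1.91), Ifnb1 (-1.80), Tnf (-1.23), Ifna1 (-1.0) and Ebi3 (-0.92). It was higher for Il1b (1.34) and Ccl22 (1.55), and for the interferon-stimulated genes Ifit2 (1.59), Cmpk2 (1.26) and Ifih1 (0.61), whose values were 1.17, 0.95 and 0.51 without WT US replicate 1. Among transcription factors and signalling genes it was lower for Tbx21 (-2.20), Irf8 (-1.51), Batf3 (-1.06), Irf4 (-1.01) and Lyn (-0.87), and higher for Stat4 (0.95). Tbx21 fell in Irf5-KO cells and rose in WT cells.

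Among receptors and cell type markers it was lower for Ifnlr1 (-3.37), S1pr1 (-3.30), Klrb1b (-3.14), Tlr12 (-2.88), Klk1 (-2.24) and Ccr9 (-1.40), and higher for Naaa (1.52). Among metabolic, cell cycle and class II genes it was higher for Slc16a3 (1.17), Cdkn1a (1.10), Hmgcs1 (0.83), Sqle (0.80), Idi1 (0.76), H2-DMa (0.58) and H2-Oa (0.57). Of the largest differences, Gm13889 (-5.97), Lmo7 (-4.22), Nupr1 (-3.61), Hsd11b1 (-3.58) and Plekhs1 (-3.37) were lower, and Cldn1 (3.18), Abca13 (3.01), Dnah2 (2.56), Pdpn (2.45), Tlx2 (2.41) and Pgm5 (2.32) higher.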

How the results depend on the processing

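Of the counts, those of features called, called higher and called lower in Irf5-KO stayed within 1.5 times under every alternative run (the test of every probe on its own counts probes). The count called at least 2-fold higher, 2638, was 1733 after normexp correction with quantile normalisation and 1695 over probes well above background on all 24 arrays, which tests fewer dim probes. The count of positive differences from WT, 1395, was 890 with no filter on dim probes, which adjusts over more features. Leaving out each array in turn gave 12756 to 12976 called features, 5930 to 6114 higher, 6692 to 6929 lower, 2578 to 2651 at least 2-fold higher and 2419 to 2518 at least 2-fold lower. The difference from WT gave 2037 to 2392 called, 1070 to 1325 higher and 884 to 1082 lower. Of 13506 called features, 1804 lost the call without 1 array, while none of 180 called changes and 44 differences named in the text did, as stable genes were preferred in the choice. With the replicate block, 13867 features were called for the CpG-B change, 13459 of them also called without it, and 2853 for the difference from WT. It changed no other count by over 1.5 times and, of the named genes, only the call of Srebf2, which it added (0.15, adjusted p = 0.0209, limma). Among named genes, normexp with quantile normalisation moved 38 of 192 changes by over 1.5 times, mostly of genes dim in 1 group. The calls of Irf3 and Irf5 were lost after quantile normalisation with or without normexp, and that of Lyn only with both. Irf3 stood at -0.033 after quantile normalisation and Clec9a at -0.22 after normexp, both opposite in sign to the values given, and the cause was not tested. Irf5 stood at 0.24 without Irf5-KO CpG-B replicate 3. Genes not called that were called under other settings were Ifnk (-0.54 without Irf5-KO CpG-B replicate 3, -0.51 without Irf5-KO US replicate 1 and -0.47 after quantile normalisation), S1pr1 (-0.64 without Irf5-KO CpG-B replicate 2), Spib, Clec9a after normexp (adjusted p = 0.02, limma), and Rel with only the arrays of the comparison. Normexp also changed 7 of 44 named differences by over 1.5 times, to -2.74 for Lmo7, -1.39 for Ifnlr1, -1.20 for Klrb1b, 0.96 for Cldn1, 0.95 for Pgm5, 0.73 for Tlx2 and 0.66 for Abca13. Within slides, 1 array per group allowed no test. Signal over background limits what can be said of genes measured in 1 group only.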
